A study of Homo sapiens with 8 samples.

Results

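The genes described are 10 that encode Toll-like receptors and the proteins that present bacterial lipopolysaccharide (LPS) to them or relay their signal: LBP, LY96, TLR4, TLR2, TLR1, TLR6, TLR5, TLR7, TLR8 and MYD88. They were taken by symbol from the count table, where all 10 were found among 61125 listed genes. RNA was sequenced from U-937 cells, an established human line of pro-monocytic leukaemia cells, after 72 h in culture. The 4 groups, of 2 libraries each, received vehicle (PBS and DMSO), 1 µM ATRA (all-trans retinoic acid, a ligand of the retinoic acid receptors), 250 µM LAA (L-ascorbic acid, vitamin C), or both compounds at those doses (LAA+ATRA). All cells were grown in RPMI medium with fetal bovine serum, and no group is labelled as having received LPS. The labels do not say whether the 2 libraries of a group came from separate cultures, so every p-value reflects the scatter among these libraries alone, which may be technical.

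Toll-like receptors are membrane proteins of innate immune cells that recognise conserved microbial molecules. In LPS sensing, LBP extracts LPS from bacterial membranes and passes it through CD14 to LY96 (also called MD-2), which holds LPS against TLR4. TLR2 with TLR1 or TLR6 recognises bacterial lipopeptides, TLR5 recognises flagellin, and TLR7 and TLR8 recognise single-stranded RNA in endosomes. MYD88 is the adaptor that all of these receptors use to recruit IRAK kinases and activate NF-κB.

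Library totals ran from 18462552 to 24166770 estimated counts, and 14995 genes passed the filter on low counts. The myelomonocytic label was checked against 13 marker genes, whose summed level was 4.58e+03 to 5.08e+03 CPM (counts scaled to a common library size after TMM normalisation) in the 4 libraries without ATRA and 9.89e+03 to 1.13e+04 CPM in the 4 with it. Of these markers MPO reached 70 counts and CD14 reached 18 counts over all 8 libraries, so the co-receptor that hands LPS to TLR4 and LY96 was near 0. Summed T cell markers, erythroid markers and epithelial markers were at most 0.146 CPM in any library.

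Promoter sequence was looked up for the 10 genes in the RefSeq table for GRCh38.p14, which covers 250 bases before and 50 bases after a gene's start, and 6 matched (TLR2, TLR4, TLR5, TLR6, TLR8 and MYD88). The motifs searched, on both strands, were the PU.1 core GAGGAAG, the retinoid half-site AGGTCA, an NF-κB site (GGGAC followed by TTTCC) and an interferon-stimulated response element, or ISRE (GAAA, any 2 bases, then GAAA). PU.1 is the myeloid transcription factor encoded by SPI1, and its core stood 4 times in the TLR4 window. Of 35116 promoters of this length, 13.6% held at least 1 such core and 7 promoters (0.0199%) held 4 or more. These stretches are shown because TLR4 and MYD88 are the 2 members with the most counts, and capitals mark the motif as read on the plus strand, where CTTCCTC is the core on the minus strand. Distances count from the start site of the RefSeq table, which lies downstream of the gene start in GENCODE 29, so these matches fall inside both genes as GENCODE 29 bounds them. The 4 stretches of TLR4, with the distance of the match before the start site, were:
TLR4, 225 bases before, chr9:117704168-117704194: agccaactagCTTCCTCttgctgtttc
TLR4, 172 bases before, chr9:117704221-117704247: cttcttctaaCTTCCTCtcctgtgaca
TLR4, 100 bases before, chr9:117704293-117704319: gccgctttcaCTTCCTCtcacccttta
TLR4, 40 bases before, chr9:117704353-117704379: ggggcggctcGAGGAAGagaagacacc

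The MYD88 window held 1 PU.1 core and 1 ISRE, which do not overlap. An ISRE is bound by interferon regulatory factors, and 3.57% of all promoters held this form of it. The stretches were:
MYD88 PU.1 core, 18 bases before, chr3:38138633-38138659: gcaggagaaaGAGGAAGcgctggcaga
MYD88 ISRE, 61 bases before, chr3:38138590-38138619: gcgcttctcgGAAAGCGAAAgccggcgggg
The TLR6 window held 1 PU.1 core, and the windows of TLR2, TLR5 and TLR8 held none. The letters of the retinoid half-site, present in 13.8% of all promoters, and of the NF-κB site, present in 0.191%, were not in any of the 6 windows. A match is a run of letters in this window, and binding was not measured.

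With ATRA, 7 of the 8 genes that could be tested were higher than in vehicle: LBP, TLR4, MYD88, TLR5, TLR1, TLR6 and LY96. Of all genes tested, 21.9% were called higher and 21% were called lower in this comparison (edgeR quasi-likelihood F test, Benjamini-Hochberg adjusted p under 0.05). For LBP, TLR1 and LY96, both libraries of a group reached the low-count cutoff only with ATRA or LAA+ATRA, and for TLR6 only with ATRA. The filter asks for 2 libraries of any group, and LY96 had 6 over the cutoff. LBP and TLR1 had 4 and TLR6 had 3, all from cells given ATRA. These genes would not have been tested without those libraries, so the count of 7 is not support for a change of the set. TLR2, TLR4, TLR5 and MYD88 were measured well enough in vehicle alone, and all but TLR2 rose. TLR7 and TLR8 did not pass the filter in any group. Apart from LBP, the fold changes of these 7 ran from 1.85 for MYD88 to 10.6 for TLR1.

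**Figure D1:**
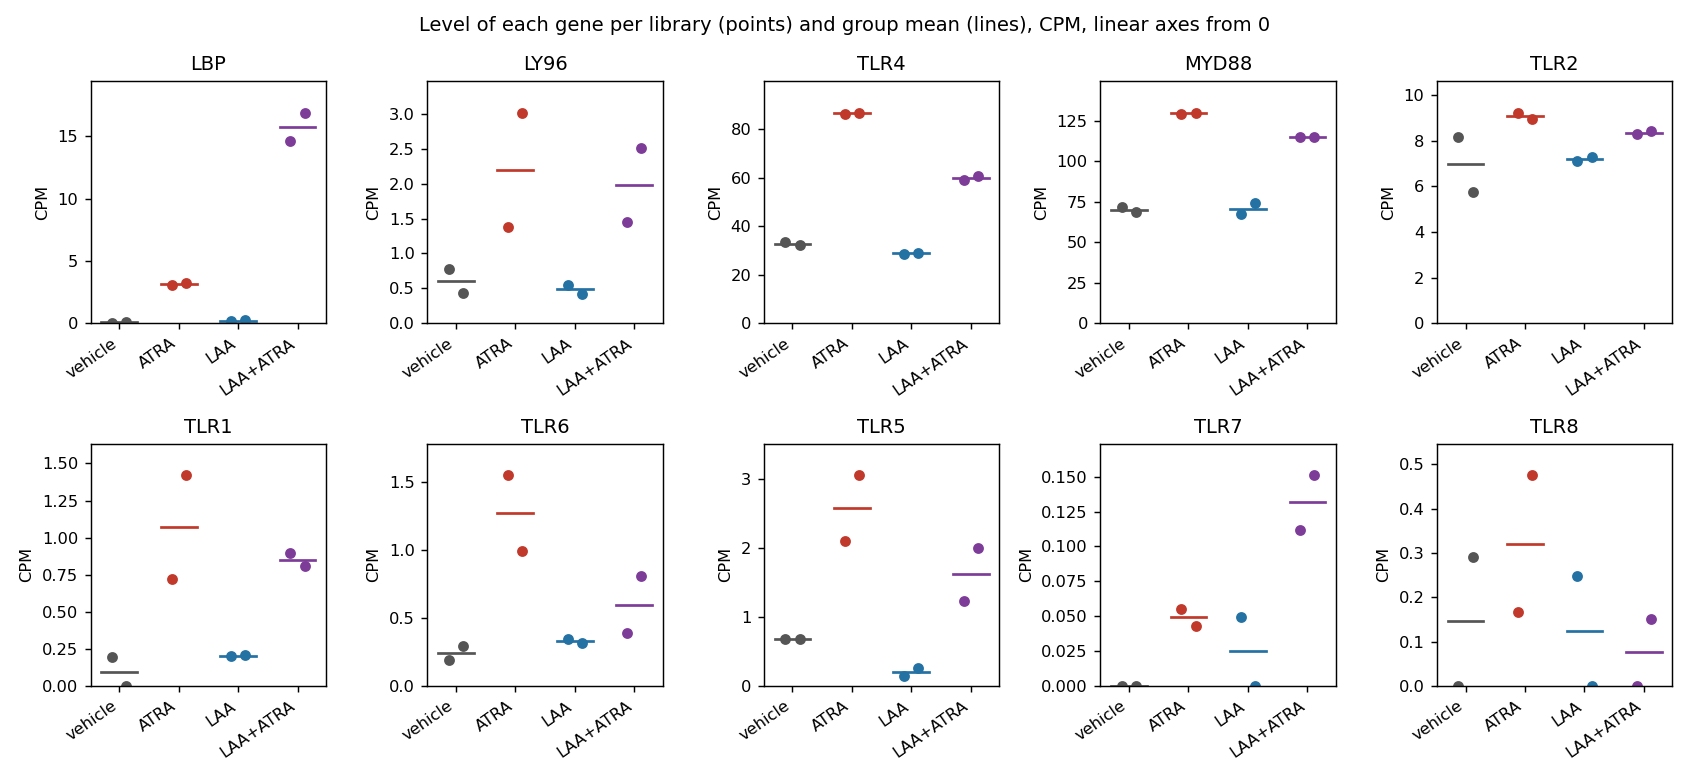
Level of each of the 10 genes in CPM (vertical axes, linear and starting at 0, each with its own scale) in the 4 groups (horizontal axes). Points are the 8 libraries and lines are means of 2. TLR4 and MYD88 sit highest with ATRA, while LBP sits highest with LAA+ATRA at 14.6 and 16.9 CPM.

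LBP, the secreted LPS transfer protein best known as a product of hepatocytes, rose with ATRA from nearly no counts. The gene lies at chr20:38346356-38377023 on the plus strand (GRCh38, GENCODE 29) and has 1 annotated transcript of 1961 bases. It had 1 and 2 counts in the vehicle libraries, 3 and 5 in those given LAA, 56 and 74 in those given ATRA, and 261 and 337 in those given both. The libraries with ATRA therefore lay apart from those without it, and the LAA+ATRA libraries lay above those with ATRA alone.

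Mean LBP levels were 0.0726 ± 0.0346 CPM in vehicle, 3.14 ± 0.0679 with ATRA, 0.206 ± 0.0805 with LAA and 15.8 ± 1.66 with LAA+ATRA (SD, n = 2). With so few counts in vehicle, the ratio of ATRA to vehicle was 43.5 with a 95% interval of 14.5 to 214, which covers counting error only. The call for ATRA against vehicle had an adjusted p of 1.51e-06 by edgeR's quasi-likelihood test. Markers of hepatocytes did not accompany LBP: ALB and FGB had 0 counts in all libraries and APOA1 had 4 counts in total, with a summed level of at most 0.111 CPM.

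LBP was also the member that rose when LAA was added to ATRA. LAA+ATRA exceeded ATRA by 2.32 ± 0.234 on the log2 scale (SE), or 5.01-fold, with an adjusted p of 0.00252 by edgeR's quasi-likelihood test. In that comparison 0.493% of all genes tested were called higher and 0.52% were called lower. DESeq2 gave the same difference of 2.32 ± 0.329 with an unadjusted p of 1.66e-12 and assigned no adjusted p. The LBP difference was 2.25 on log2(FPKM + 0.1), where it missed the threshold with a limma adjusted p of 0.0944. On log2(FPKM + 1) it was 1.87 with a limma adjusted p of 0.042. It was called in all 8 edgeR fits that left out 1 library, with values from 2.20 to 2.43.

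Without ATRA, 8 LBP counts with LAA stood against 3 in vehicle, a ratio of 2.82 with a 95% counting interval of 0.676 to 16.5. The edgeR adjusted p for LBP in that comparison was 0.374. The interaction, which is the effect of LAA with ATRA minus its effect without ATRA, was 0.90 for LBP with a 95% interval of -0.93 to 2.73 and an edgeR adjusted p of 0.998. These counts therefore did not show the LAA effect on LBP to differ between cells with and without ATRA, and the interval is wide. LAA+ATRA against vehicle gave an LBP ratio of 218, with a 95% counting interval of 74.4 to 1060.

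TLR4, the signalling receptor for LPS, rose with ATRA and was lower with LAA+ATRA than with ATRA alone. The gene lies at chr9:117704175-117724730 on the plus strand (GRCh38, GENCODE 29). Its level was 33.4 and 32.1 CPM in the vehicle libraries, 28.7 and 28.8 CPM in those given LAA, 86.4 and 86.9 CPM in those given ATRA, and 59.2 and 60.9 CPM in those given both. None of the 4 groups overlapped in TLR4, and the ATRA libraries were the highest.

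The TLR4 rise with ATRA was 2.65-fold, 1.40 ± 0.0951 on the log2 scale (SE), with an edgeR quasi-likelihood adjusted p of 2.92e-07. It was called under every alternative run for that comparison, with the smallest value at 0.97. Between LAA+ATRA and ATRA the TLR4 difference was -0.53 ± 0.092 on the log2 scale (SE), 0.693 of the ATRA level, with an edgeR adjusted p of 0.0337. This call was lost in 6 of 8 fits without 1 library, with adjusted p up to 0.0838. It was lost with a replicate block (adjusted p = 0.0602) and with only the 4 libraries compared (adjusted p = 0.192). DESeq2 kept it with an adjusted p of 0.000744. LAA against vehicle left TLR4 at -0.19 with a 95% interval of -0.40 to 0.02 and an edgeR adjusted p of 0.323.

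The deposited FPKM values, which divide by gene length, kept the order of the TLR4 group means but changed the gaps between them. Vehicle libraries read 5.73 and 4.34 FPKM, LAA libraries 3.7 and 4.26, ATRA libraries 12.1 and 9.44, and LAA+ATRA libraries 5.93 and 4.99. On this scale the LAA+ATRA libraries overlapped those of vehicle, whereas in CPM they lay 1.83-fold above them. The length that the ratio of TLR4 counts to FPKM implies was set against 432 genes with 1 transcript. Vehicle libraries gave 6530 and 8300 bases, LAA libraries 8490 and 7520, ATRA libraries 7980 and 10250, and LAA+ATRA libraries 10760 and 13380. Both LAA+ATRA libraries thus had a longer implied TLR4 length than the other 6, and the highest exceeded the longest of the 5 annotated transcripts, which are 539, 2955, 4048, 5432 and 12853 bases.

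With a gene length taken for each library as an offset in the same edgeR fit, an alternative chosen after seeing the data, TLR4 in LAA+ATRA against vehicle fell from 0.88 to 0.12 on the log2 scale, and the adjusted p went from 1.71e-05 to 0.634. LAA+ATRA against ATRA then read -0.98, with an adjusted p of 0.0543 by edgeR. ATRA against vehicle stayed called. The same calculation for MYD88 gave 2590 to 2710 bases in all 8 libraries, and LBP with ATRA or both compounds gave 1660 to 1730 bases. Which TLR4 transcripts the reads came from was not tested. Of the TLR4 exon bases, 558 of 13272 (4.2%) overlap those of AL160272.2 on the same strand.

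**Figure D2:**
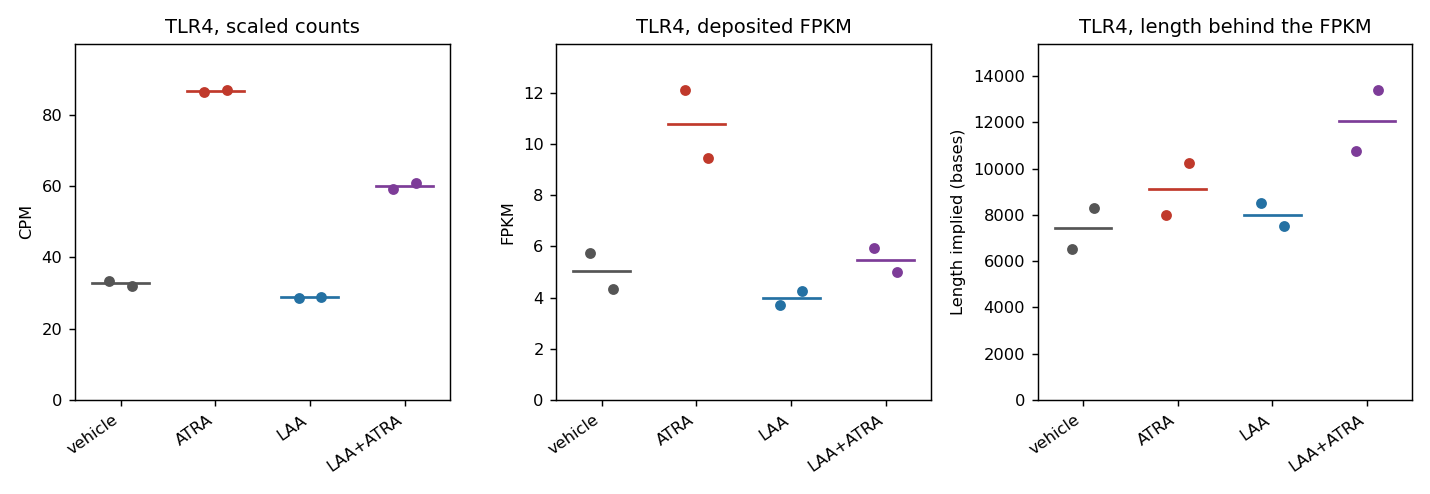
TLR4 in each library (points; lines are means of 2) as CPM, as deposited FPKM and as the gene length in bases implied by the ratio of counts to FPKM, with linear vertical axes from 0. LAA+ATRA lies above vehicle in CPM and overlaps it in FPKM, and its implied lengths of 10760 and 13380 bases are the longest.

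LY96 encodes the small secreted partner that binds LPS in the TLR4 complex, and it was measured with few counts. Its counts were 16 and 9 in the vehicle libraries, 11 and 8 in those given LAA, 25 and 70 in those given ATRA, and 26 and 50 in those given both. Every library with ATRA exceeded every library without it, and the ATRA group differed most within itself. LY96 rose by 1.87 ± 0.558 on the log2 scale (SE) with ATRA, with an edgeR adjusted p of 0.0165. That call was lost without vehicle replicate 2, at 1.52, and without ATRA replicate 2, at 1.19. By limma on log2(FPKM + 0.1) without a filter LY96 was 1.64 and not called (adjusted p = 0.0654). The limma fits with a filter kept the call. LAA+ATRA against ATRA gave -0.16 for LY96, with a 95% interval of -1.26 to 0.94.

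MYD88, the shared adaptor, was the most abundant of the 10 genes by FPKM in every group. The gene lies at chr3:38138478-38143022 on the plus strand (GRCh38, GENCODE 29). The vehicle libraries stood at 71.7 and 68.5 CPM, the LAA libraries at 67.2 and 74.1, the ATRA libraries at 129 and 130, and the LAA+ATRA libraries at 115 and 115. The vehicle and LAA libraries overlapped, and all 4 libraries with ATRA lay above them. MYD88 rose 1.85-fold with ATRA, 0.89 ± 0.0969 on the log2 scale (SE), with an edgeR adjusted p of 1.65e-05. LAA alone gave 0.01 with a 95% interval of -0.20 to 0.22. LAA added to ATRA gave -0.17 with a 95% interval of -0.38 to 0.04 and an edgeR adjusted p of 0.362.

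TLR2, the partner common to both lipopeptide receptors, was the one tested gene not called in any of the 6 comparisons. It lies at chr4:153684070-153705702 on the plus strand (GRCh38, GENCODE 29). The vehicle libraries stood at 8.18 and 5.77 CPM, the LAA libraries at 7.1 and 7.3, the ATRA libraries at 9.24 and 8.97, and the LAA+ATRA libraries at 8.28 and 8.45. The 2 vehicle libraries enclosed both LAA values and differed from each other by more than the replicates of any other group did for this gene. TLR2 with ATRA against vehicle was 0.38 with a 95% interval of -0.04 to 0.80 and an edgeR adjusted p of 0.13. Without vehicle replicate 1 that difference was 0.66 and passed the threshold with an adjusted p of 0.0474.

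TLR1 and TLR6, the alternative partners of TLR2, lie on the minus strand at chr4:38790677-38856817 and chr4:38823715-38856817 (GRCh38, GENCODE 29), TLR6 within TLR1. They share 57 exon bases, and 9.06% of the 31-base words of TLR1 transcripts also occur in TLR6, so the split of reads between them is uncertain. TLR1 had 4 and 0 counts in the vehicle libraries, 4 and 4 in those given LAA, 13 and 33 in those given ATRA, and 16 and 16 in those given both. TLR6 had 4 and 6, then 7 and 6, then 28 and 23, and last 7 and 16 counts in the same order of groups. For both genes the ATRA libraries lay above the vehicle libraries.

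TLR1 rose with ATRA by 3.40 ± 0.953 on the log2 scale (SE; edgeR adjusted p = 0.0107), a fitted value that depends on a vehicle library at 0. It ran from 2.45 without vehicle replicate 2 to 7.43 without vehicle replicate 1. The counting ratio of TLR1 in ATRA to vehicle was 11.5, with a 95% interval of 4.21 to 44.1. Leaving out vehicle replicate 2 took the edgeR adjusted p for TLR1 to 0.0724, and leaving out ATRA replicate 2 took it to 0.0694, so that neither fit called it. TLR6 rose by 2.36 ± 0.698 (SE; edgeR adjusted p = 0.0153). That call was lost without either vehicle library or ATRA replicate 1, with values from 2.02 to 2.68. It was also lost by limma on log2(FPKM + 0.1) without a filter, at 1.22 (adjusted p = 0.0705). With the counts of TLR1 and TLR6 added together as 1 gene, the change with ATRA was 2.77 with an edgeR adjusted p of 0.000821. The sum in LAA+ATRA against ATRA was -0.69 with an adjusted p of 0.43. It was called higher in LAA+ATRA against vehicle (2.08; edgeR adjusted p = 0.00573), where TLR6 by itself was not, and against LAA (1.43; edgeR adjusted p = 0.0376), where neither gene was.

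TLR5, the flagellin receptor, had the most negative fold change with LAA alone among the 8 genes tested. It lies at chr1:223109406-223143282 on the minus strand (GRCh38, GENCODE 29). Its counts were 14 and 14 in the vehicle libraries, 3 and 5 in those given LAA, 38 and 71 in those given ATRA, and 22 and 40 in those given both. In CPM none of these 4 groups overlapped, with LAA lowest and ATRA highest. In FPKM the LAA libraries, at 0.241 and 0.0709, lay on either side of the vehicle libraries at 0.185 and 0.184. TLR5 rose by 1.93 ± 0.491 on the log2 scale with ATRA (SE; edgeR adjusted p = 0.00694). This call was lost without ATRA replicate 2, at 1.63. By limma on log2(FPKM + 0.1) without a filter the rise was 1.47 and was not called (adjusted p = 0.131).

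TLR5 with LAA against vehicle was -1.69 with a 95% interval of -3.07 to -0.32. Its unadjusted p was 0.0179 and its edgeR adjusted p was 0.17, so it was not called. The difference was -0.69 with the length offset and -0.24 by limma on log2(FPKM + 0.1) without a filter. None of the 8 genes tested was called with LAA alone, against 0.02% of all genes called higher and 0.00667% called lower. Over all genes, 2833 had an unadjusted p under 0.05 in that comparison with edgeR, and DESeq2 called 713. DESeq2 assigned an adjusted p to TLR4 (0.337) and MYD88 (0.986) alone among the members and called neither.

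TLR7 and TLR8, the endosomal receptors for single-stranded RNA, were at the edge of detection. TLR7 had 0 counts in both vehicle libraries and at most 3 counts in any library. TLR8 ranged from 0 to 11 counts, with 1 library at 0 in each of the vehicle, LAA and LAA+ATRA groups. A count of 0 over the 2 vehicle libraries allows a level of up to 0.0725 CPM. Neither gene was tested. Group sums of TLR8 were 6 counts in vehicle, 14 with ATRA, 5 with LAA and 3 with LAA+ATRA. The TLR8 ratio of LAA+ATRA to ATRA was 0.234 with a 95% counting interval of 0.0431 to 0.839, and 1 library of each of these groups had 3 counts.

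**Figure D3:**
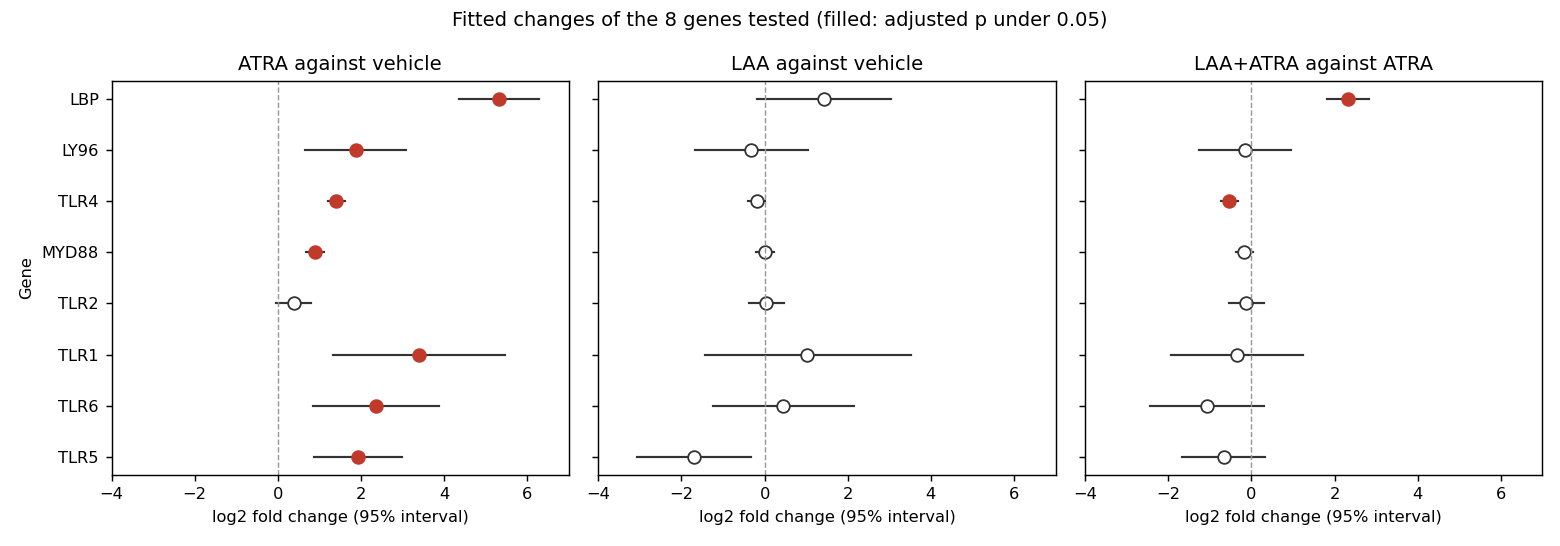
Fitted log2 fold changes (horizontal axes) with 95% intervals (lines) for the 8 genes tested (vertical axis) in 3 comparisons. Filled points have an edgeR adjusted p under 0.05: 7 with ATRA, none with LAA alone, and LBP and TLR4 in opposite directions for LAA+ATRA against ATRA.

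The comparisons of LAA+ATRA with vehicle, ATRA and LAA share libraries with those above, so they are given side by side and not as separate support. Against vehicle, LAA+ATRA was called higher for 5 members (LBP, TLR4, MYD88, TLR1 and LY96), where 23.1% of all genes tested were called higher and 21.5% lower. Against LAA it was called higher for LBP, TLR4, MYD88, TLR5 and LY96, where 18.4% of all genes were called higher and 18% lower. Differences with a call in one of these comparisons and not in the other were not themselves tested. LBP and TLR1 reached the low-count cutoff only in libraries given ATRA, so these counts of members are not support for a change of the set.

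MYD88 showed 0.71 ± 0.0969 against vehicle (adjusted p = 9.37e-05) and 0.70 ± 0.097 against LAA on the log2 scale (SE, edgeR). TLR4 showed 0.88 ± 0.0952 and 1.06 ± 0.0962 (SE), both lost when gene length was taken into account. LY96 showed 1.71 ± 0.562 (SE; adjusted p = 0.0252) and 2.03 ± 0.581 (SE; adjusted p = 0.0156), and TLR1 showed 3.06 ± 0.971 against vehicle (SE; adjusted p = 0.0196), with values from 2.10 to 7.08 when 1 library was left out. The LY96 call against vehicle was lost without vehicle replicate 2 or LAA+ATRA replicate 2, and that of TLR1 without vehicle replicate 2 or LAA+ATRA replicate 1. For LY96 against vehicle it was also lost with the length offset (1.33; adjusted p = 0.107), on log2(FPKM + 1) (adjusted p = 0.053) and by limma without a filter (adjusted p = 0.108). The LY96 call against LAA was lost without either LAA library or LAA+ATRA replicate 2, with adjusted p up to 0.112. TLR5 against LAA was 2.95 ± 0.593 (SE; adjusted p = 0.00184), which the length offset took to 1.84 with an adjusted p of 0.0789. Against vehicle, TLR5 was 1.26 and not called, but passed without LAA+ATRA replicate 1 at 1.57 (edgeR adjusted p = 0.0458). No member was called for the interaction, for which 0.00667% of all genes were called higher and 0% lower, 746 genes had an unadjusted p under 0.05 with edgeR, and DESeq2 called 15 genes. The interaction of TLR4 was -0.34 with a 95% interval of -0.63 to -0.05 and an edgeR adjusted p of 0.971.

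Levels can be compared between genes only per length, in FPKM. In vehicle, MYD88 was highest at 29.5 ± 0.836 FPKM (SD, n = 2), followed by TLR4 at 5.03 ± 0.987, TLR2 at 2.89 ± 0.565 and LY96 at 2.56 ± 1.2, and the other 6 were at or below 0.185. TLR2 and LY96 overlapped there. With ATRA the order was MYD88 at 54.6 ± 0.882, TLR4 at 10.8 ± 1.92, LY96 at 8.37 ± 4.51, TLR2 at 3.25 ± 0.179 and LBP at 2.06 ± 0.0653, with TLR4 and LY96 overlapping. With LAA+ATRA, LBP was second at 10.2 ± 1.39 FPKM, behind MYD88 at 47.7 ± 1.16 and ahead of LY96 at 6.44 ± 1.82 and TLR4 at 5.46 ± 0.668. LY96 and TLR4 overlapped in that group, and LBP lay above both. The place of TLR4 in this order depends on the implied lengths given above, of which 1 exceeds its longest annotated transcript. That of LY96 depends on few counts and on short implied lengths, 290 bases in ATRA replicate 2 and 360 bases in LAA+ATRA replicate 2. Both lie below its annotated transcripts of 430 and 607 bases. The lengths implied for LBP, 1660 to 1730 bases, also lay below its 1 transcript of 1961 bases.

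Another 111 genes of the pathway, in 9 lists by role, were read in the same fits, and 94 of them were tested. With ATRA 44 were called higher and 11 lower, where the shares over all genes tested were 21.9% and 21%. Their median log2 fold change was 0.40 against a median near 0 for all genes tested. Neither LAA alone nor LAA added to ATRA gave a call in any of the 94. Over all genes tested, 0.02% were called higher and 0.00667% lower with LAA alone. For LAA added to ATRA these shares were 0.493% and 0.52%, so the absence of calls among the 94 is near the shares over all genes. The lists were chosen with earlier results of these data known, so their counts describe these genes and nothing further.

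Of genes that bind or inactivate LPS outside the receptor, both tested rose with ATRA, where 21.9% of all genes tested were called higher. BPI, a granule protein that neutralises LPS and is related to LBP, went from 1.33 ± 0.657 to 14.4 ± 0.325 CPM (SD, n = 2), 10.8-fold with an edgeR adjusted p of 4.51e-06. AOAH, the lipase that deacylates LPS, rose 1.38-fold (edgeR adjusted p = 0.0176), and lost its call without vehicle replicate 2 (adjusted p = 0.149) or with ATRA replicate 2 left out (adjusted p = 0.0938). CD14, MSR1 and TRIL were not tested, with 18, 0 and 2 counts over all libraries.

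Among chaperones and trafficking proteins of the receptors, 8 of 12 rose with ATRA and none fell, against 21.9% and 21% of all genes tested. CTSS, a cathepsin that cleaves endosomal Toll-like receptors, rose 2.57-fold to 198 ± 8.1 CPM (SD, n = 2). TASL, the adaptor through which endosomal receptors activate IRF5, rose 2.2-fold, and CNPY3, a chaperone for surface receptors including TLR4, rose 2.08-fold. Of the remaining receptors and the RP105 pair, 3 of 5 were tested and TLR9, the receptor for CpG DNA, fell from 4.06 ± 1.46 to 0.966 ± 0.037 CPM (SD, n = 2; edgeR adjusted p = 0.00803). TLR9 missed the threshold without vehicle replicate 2 (edgeR adjusted p = 0.0771) and in the 3 limma fits on FPKM.

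Of 7 genes listed as adaptors, 3 rose and 2 fell with ATRA, against 21.9% and 21% of all genes tested. The list includes the member MYD88 and, besides adaptors proper, CD36, and both are among the 3 that rose. CD36, a scavenger receptor that delivers lipids to TLR2 and TLR6, rose 20.3-fold from 11.3 ± 0.233 to 229 ± 30 CPM (SD, n = 2). PIK3AP1, which links Toll-like receptors to PI3 kinase, rose 1.58-fold. TICAM2, the bridging adaptor for the TLR4 pathway that does not use MYD88, had 52 counts in vehicle and 0 counts in both ATRA libraries. One LAA+ATRA library also had 0 TICAM2 counts and the other had 24. Without vehicle replicate 2 the edgeR adjusted p for TICAM2 was 0.0563. SARM1, which dampens that same branch, fell by 1.35 on the log2 scale, a call lost without any 1 of the 4 vehicle and ATRA libraries, with edgeR adjusted p up to 0.0872.

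Of 22 kinases and ubiquitin ligases tested below the adaptors, 10 rose and 4 fell with ATRA, against 21.9% and 21% of all genes tested. The 4 that fell were IRAK2, TRAF3, TAB1 and PELI2. MAP3K8, the kinase that carries the signal to ERK, rose 5.8-fold from 7.29 ± 0.916 to 42.4 ± 0.865 CPM (SD, n = 2). LYN rose 3.02-fold, IKBKE 2.6-fold and IRAK4, the kinase recruited directly by MYD88, 1.83-fold. Of 15 inhibitors 6 rose and none fell, against 21.9% and 21% of all genes tested, among them SIGIRR at 2.15-fold and SOCS1 at 2.37-fold. The calls of 4 of the 6 depended on the setting. TOLLIP, which holds back IRAK1, went from 0.47 to 0.05 on the log2 scale with the length offset (edgeR adjusted p = 0.764). SOCS3 missed the threshold under DESeq2 (adjusted p = 0.066), with only the libraries compared, with the offset, by limma without a filter, and without vehicle replicate 1, vehicle replicate 2, ATRA replicate 1 or either LAA library (edgeR adjusted p up to 0.278). CYLD missed it in the 3 limma fits (adjusted p up to 0.153) and TRAFD1 without vehicle replicate 1 (edgeR adjusted p = 0.104).

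Of 13 transcription factors and their inhibitors, 3 rose and 2 fell with ATRA, near the shares of 21.9% and 21% over all genes tested. IRF7 rose 3.48-fold from 7.73 ± 0.521 to 26.9 ± 2.89 CPM (SD, n = 2), while NFKBIA, the NF-κB inhibitor that NF-κB itself induces, fell by 0.50 on the log2 scale. Without vehicle replicate 2 the edgeR adjusted p for NFKBIA was 0.0507. With the length offset, IRF3 was 0.40 (edgeR adjusted p = 0.0512) and NFKB2 was -0.20 (edgeR adjusted p = 0.523), and neither was called. NFKB2 was also not called without vehicle replicate 2 (edgeR adjusted p = 0.0557). Of 19 textbook LPS-response genes 12 were tested, of which 4 rose and 2 fell, against the same shares of 21.9% and 21% over all genes. TNF rose 5.3-fold but only to 3.24 ± 0.428 CPM, and CXCL8 rose 3.45-fold to 2.26 ± 0.153 CPM (SD, n = 2). The calls of the other two that rose were lost in fits without 1 library, for CD83 without vehicle replicate 1 (edgeR adjusted p = 0.0898) and for ICAM1 without either vehicle library or ATRA replicate 1 (edgeR adjusted p up to 0.0938). SOD2 fell by 1.32 and IL1RN fell by 1.65 on the log2 scale.

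All 9 tested genes of cytosolic LPS sensing and the inflammasome, of 12 listed, rose with ATRA, with a median log2 fold change of 1.64. Over all genes tested, 21.9% were called higher and 21% lower in this comparison. GBP5, a guanylate-binding protein that acts on bacterial membranes, rose 5.97-fold from 6.36 ± 0.616 to 38 ± 2.63 CPM (SD, n = 2). CASP1 rose 3.11-fold, NLRP3 2.34-fold and GSDMD, the pore-forming protein cut by inflammatory caspases, 1.79-fold. In LAA+ATRA against ATRA none of these 9 was called, and their median was -0.27. Over all genes tested, 0.493% were called higher and 0.52% lower in that comparison, so the absence of calls is near these shares.

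**Figure D4:**
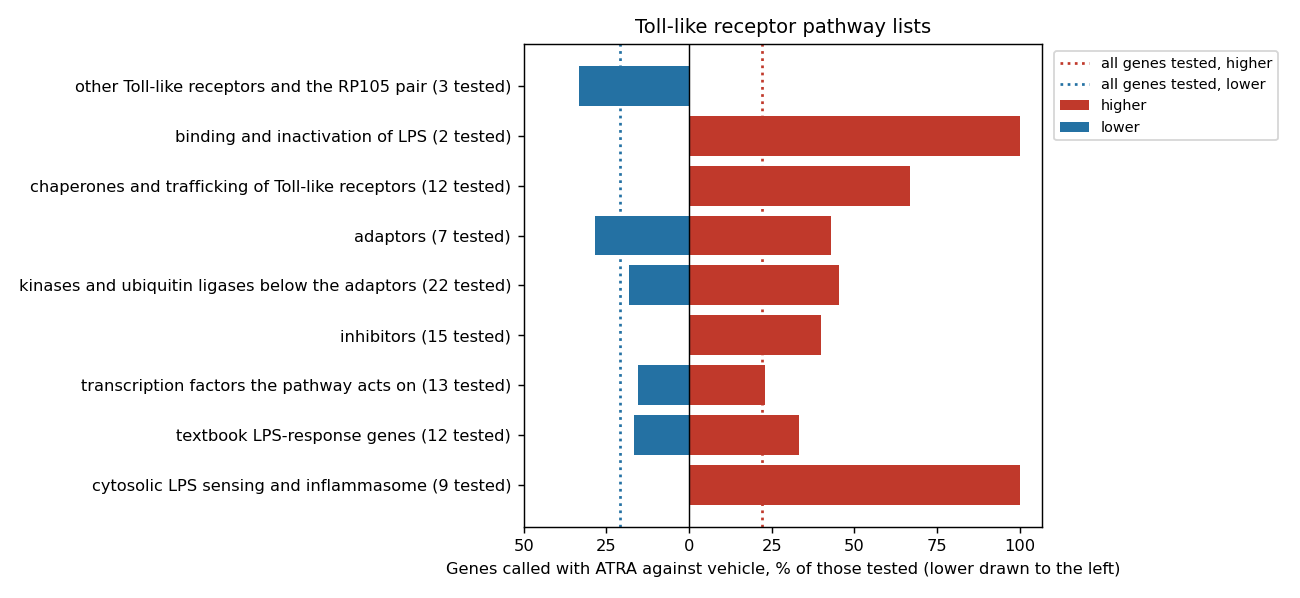
Share of the tested genes in each pathway list (vertical axis) called higher (right) or lower (left) with ATRA against vehicle, in percent of those tested (horizontal axis). Dotted lines mark the shares over all genes tested, 21.9% higher and 21% lower, and the number tested stands beside each list.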

How the data were processed

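Polyadenylated RNA was sequenced in 8 libraries of U-937 cells. The deposited estimated counts per gene were made by the authors, whose processing notes name Salmon 1.8.0, DESeq2 1.36.0, GRCh38 and hg38, with the roles of these not stated. They hold decimals and were not scaled between libraries. FPKM for the same genes was also deposited as the authors computed it, using lengths that were not the same in every library and a scaling that is not given in the sources used here, as are the annotation release and strand setting.

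Counts were rounded, which changed 16.5% of values. Genes were filtered with filterByExpr, scaled by TMM and fitted as 4 group means over all 8 libraries in edgeR 4.0.16 (R 4.3.3), with two-sided quasi-likelihood F tests and Benjamini-Hochberg adjustment over 14995 genes in each of 6 comparisons. Adjusted p-values come from edgeR unless DESeq2 1.42.0 or limma 3.58.1 is named. Alternatives were another tool, RLE size factors, no low-count filter, a replicate block, TLR1 and TLR6 added as 1 gene, a fit to the compared groups alone, limma on log2 FPKM, each library left out, and a length offset chosen after seeing the data. Same-numbered libraries did not deviate together over the genes tested (correlations of replicate differences from -0.0926 to 0.0902). This does not show whether they were handled together. Ratios of few counts carry exact 95% intervals for counting error only. Scripts were tested on simulated data.

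The members and gene lists were chosen with earlier results of these data known. The text names all members in every comparison and, from each pathway list, genes among the first 6 called with ATRA by adjusted p. The 4 kinases and ubiquitin ligases that fell with ATRA are named besides. Genes alike in pattern are not reported, since the libraries fall into 2 clusters, with and without ATRA. Positions and transcripts are from GENCODE 29, which may differ from the authors' annotation. The result of 1 marker list is not reported here.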

Additional observations from a re-analysis of the deposited data

Results flagged for a closer look

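For TLR6, the effect of LAA with ATRA and without it pointed in opposite directions. The interaction was -1.51 on the log2 scale with a 95% interval of -3.69 to 0.67. By edgeR's quasi-likelihood test its unadjusted p was 0.153 and its adjusted p 0.986, so the difference was not shown. Over the 2 libraries of each group the gene had 10 counts (vehicle), 13 counts (LAA), 51 counts (ATRA) and 23 counts (both compounds).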

How the results depend on the processing

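Of 784 values of the members under alternatives, 704 kept their direction and their side of the threshold, 47 lost a call, 5 gained one and 28 changed sign, none of the 28 being called. Of 708 values of other named genes 663 kept both and 45 lost a call. LBP, TLR4 and MYD88 were called for ATRA against vehicle under every alternative run. Depth limits LBP without ATRA, LY96, TLR1, TLR5, TLR6, TLR7 and TLR8, which had at most 71 counts in any library.

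Members called for ATRA against vehicle went from 7 to 4 in each of the 3 limma fits (of 5 members tested in the 2 with an FPKM filter and 8 in the one without), and lay between 4 and 7 without 1 library. For LAA+ATRA against vehicle they went from 5 to 2, 3 and 2 in the fits on log2(FPKM + 1), on log2(FPKM + 0.1) and on the latter without a filter, to 3 with the length offset, and lay between 3 and 5 without 1 library. For LAA+ATRA against LAA they went from 5 to 3, 3, 2 and 3 under those same settings, and lay between 4 and 5 without 1 library. For LAA+ATRA against ATRA they went from 2 to 1 under DESeq2, the replicate block, only the libraries compared, log2(FPKM + 1) and the length offset, to 0 in both other limma fits, and lay between 1 and 2 without 1 library. DESeq2 gave LBP no adjusted p there.

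Over all genes, ATRA against vehicle called 6428, and 4193 by limma without a filter, and LAA+ATRA against LAA called 5451, and 3448 by that fit. LAA against vehicle called 4 genes, with 713 under DESeq2, 828 without a low-count filter, 2 with the replicate block, 2016 with only the libraries compared, 2 on log2(FPKM + 1), 2 by limma without a filter, 0 with the length offset, and from 0 to 567 without 1 library. LAA+ATRA against ATRA called 152, with 705, 903, 30 and 10 under the first 4 of these settings, 6, 4 and 21 in the limma fits, 15 with the length offset, and from 5 to 194 without 1 library. The interaction called 1, with 15 under DESeq2, 136 without a low-count filter, 2, 3 and 0 in the limma fits, and from 1 to 9 without 1 library.

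Signs changed for TLR2 in LAA+ATRA against ATRA (0.26, 0.32 and 0.32 by limma, 0.33 with the offset) and in the interaction (0.17, 0.21 and 0.21 by limma, 0.22 with the offset, -0.44 to 0.06 without 1 library). They changed for the TLR5 interaction (-0.41 by limma without a filter, -0.07 with the offset) and TLR6 in LAA+ATRA against LAA (-0.09 and -0.15). MYD88 with LAA turned from 0.01 to -0.01 in the 3 limma fits and to -0.0043 with the offset. Without 1 library, the range crossed 0 for TLR1 (-0.76 to 0.24) and LY96 (-0.62 to 0.52) in LAA+ATRA against ATRA, for TLR2 (-0.18 to 0.32), LY96 (-0.66 to 0.15) and MYD88 (-0.06 to 0.08) in LAA against vehicle, and for the LY96 interaction (-0.30 to 0.84). The cause of these changes was not tested. Other than TLR4 in LAA+ATRA against ATRA (adjusted p = 0.0602), the replicate block changed no call of a member, and the fit with only the libraries compared was not run for the interaction.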
